A study of Mus musculus with 2 samples.

Results

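The genes described here are 10 carriers of amino acids and related compounds of the liver: Slc3a1, Slc7a9, Slc7a2, Slc38a2, Slc38a3, Slc38a4, Slc1a4, Slc1a5, Slc43a1 and Slc6a12. They were found on the array as probe sets whose platform annotation names 1 gene, and all 10 were found, each with 1 probe set, among 30142 genes in all. RNA came from PiZ mice, C57BL/6 animals transgenic for the mutant human alpha-1-antitrypsin gene (ATZ) with its own promoter, 3 months old, untreated and on standard chow. The mutant protein collects in hepatocytes as globules. Areas holding globules and areas free of them were chosen by morphology on Cresyl Violet-stained frozen sections and cut out by laser, so both groups carry the transgene and neither is a wild type liver. Each group, globule-containing and globule-free, is 1 array of RNA pooled from 2 mice. The sources used here do not say whether both pools came from the same mice. With 1 array a group there is no replicate check, and no test, p-value or SD can be given: each difference describes these 2 arrays.

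Hepatocytes take up amino acids from portal blood for urea synthesis, gluconeogenesis and protein export, and return glutamine and others to the circulation. Carriers of the SLC7 family work as single proteins when they carry cationic amino acids, or as light chains bound to a heavy chain of the SLC3 family. Sodium-coupled SLC38 carriers concentrate alanine, glutamine and similar neutral amino acids in the cell. SLC1 members exchange neutral amino acids, SLC43A1 lets large neutral ones pass without sodium, and SLC6A12 brings in betaine, an osmolyte and methyl donor.

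Values are log2 probe set signals, and a difference is the globule-containing minus the globule-free signal; 2-fold is 1 on this scale. Genes with a mean of both arrays below 4.76, the median over probe sets naming 1 gene, were left out of counts. This floor left 15023 genes, 8 of the 10 carriers among them. All 8 lay above the floor on both arrays, and only Slc7a9 and Slc1a4 were below it. Background was set where 95% of the probe sets for olfactory and vomeronasal receptors, genes of sensory neurons, lie at or below it, and was 4.85 on the globule-containing and 5.04 on the globule-free array.

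Most of these carriers had lower signals in globule-containing areas. The difference was largest for Slc3a1, a heavy chain, followed by the glutamine carrier Slc38a3, the cationic carrier Slc7a2 and the alanine carrier Slc38a2. Of the 8 carriers above the floor, 5 were at least 2-fold lower, against 5.26% of all genes above the floor. None was at least 2-fold higher, against 6.47% of all genes, and 4 of the 8 were at least 4-fold lower, against 1.32%, with Slc38a2 only just past that mark. Their median difference was -1.52, beside 0.05 over all genes above the floor. The 10 carriers were chosen with earlier results of these data known, so these counts and medians are descriptions only. Fewer hepatocytes in the captured areas and less RNA per hepatocyte cannot be told apart in such samples. General hepatocyte markers, given further on, had a median difference of -0.14, with 8 of 10 within 2-fold and 2 lower. Some of these markers lay near the top of the arrays' range, where differences may be compressed. Periportal hepatocyte markers had a median of -3.24, and the part of either in the carrier differences was not tested.

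**Figure D1:**
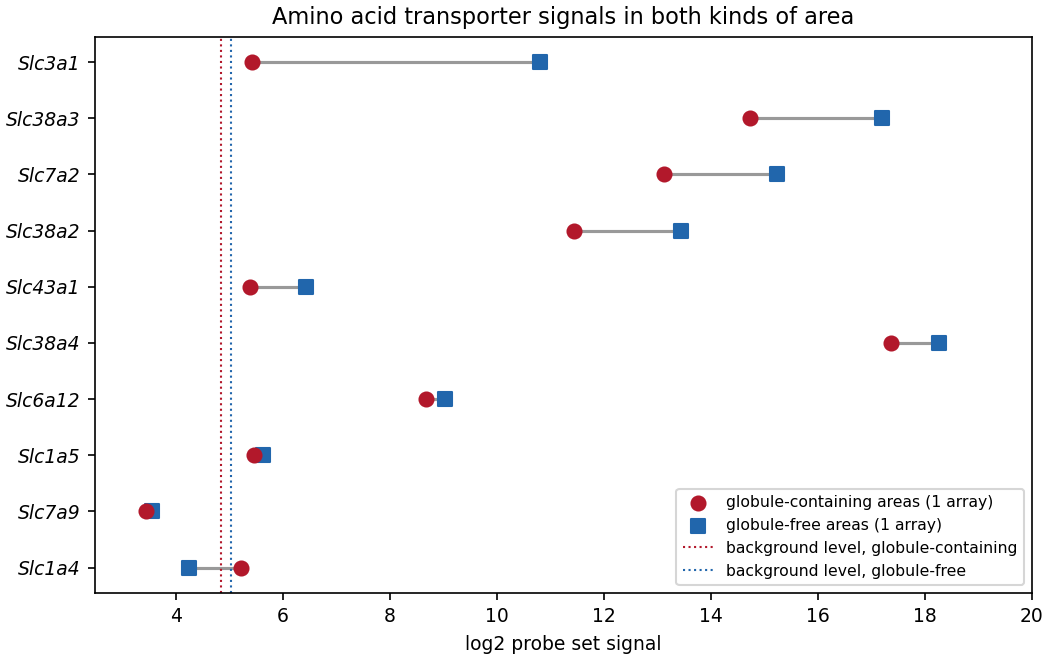
Log2 probe set signal (horizontal axis) of the 10 carriers, with circles for the globule-containing and squares for the globule-free array, 1 array each, and dotted lines at each array's background level. Slc3a1 spans 5.42 to 10.82, Slc38a3, Slc7a2 and Slc38a2 are each at least 4-fold apart, and Slc7a9 lies left of both lines.

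The heavy chain Slc3a1 encodes rBAT, which brings the light chain b0,+AT, encoded by Slc7a9, to the membrane. Together they carry cystine and dibasic amino acids, and human mutations in either gene cause cystinuria, a disease of kidney tubules. Slc3a1 (probe set TC1700001268.mm.1) had a signal of 5.42 in globule-containing areas, against 10.82 in globule-free areas. The globule-containing signal was thus close to background while the globule-free one was far above it, a 42.0-fold lower signal. Only 4 of the 15023 genes above the floor had a more negative difference, which places Slc3a1 at rank 5. The 3 genes nearest to it by difference were Hal, which degrades histidine, at -5.61, and the cytochromes P450 Cyp2c50 at -4.96 and Cyp2c54 at -5.83, whose near-identical sequences can share hybridisation. That likeness is a single difference between 2 arrays. The end of Slc3a1 overlaps the neighbouring gene Prepl by 1731 bases in the RefSeq table, and Prepl had 7.57 in globule-containing areas against 7.44 in globule-free areas.

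Its light chain was not detected. Slc7a9 had 3.45 in globule-containing areas against 3.56 in globule-free areas, below background on both arrays, so it has no fold. Slc7a13, a kidney light chain that also pairs with rBAT in mice, was likewise below background, with 3.67 in globule-containing areas against 4.01 in globule-free areas. No partner of rBAT on these lists was therefore above background beside the Slc3a1 difference.

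The promoter of Slc3a1 is shown because this gene had the most negative difference of the 10, together with those of Slc38a2 and Slc43a1, which were also at least 2-fold lower. Slc1a4, the one carrier with a positive difference, and Slc7a11, the cystine importer described further on, stand beside them for contrast. Each runs from 250 bases before to 50 bases after the RefSeq start (GRCm38.p6), 5′ to 3′ on the gene's strand, with capitals marking every match to the motifs named after the sequences.

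Slc3a1 (chr17:85028097-85028396, plus strand): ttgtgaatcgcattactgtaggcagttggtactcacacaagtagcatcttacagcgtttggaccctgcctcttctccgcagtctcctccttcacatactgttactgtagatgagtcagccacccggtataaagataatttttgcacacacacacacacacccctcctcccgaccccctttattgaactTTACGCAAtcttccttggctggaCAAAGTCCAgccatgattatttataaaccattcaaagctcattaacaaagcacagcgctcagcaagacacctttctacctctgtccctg
Slc38a2 (chr15:96699679-96699978, minus strand): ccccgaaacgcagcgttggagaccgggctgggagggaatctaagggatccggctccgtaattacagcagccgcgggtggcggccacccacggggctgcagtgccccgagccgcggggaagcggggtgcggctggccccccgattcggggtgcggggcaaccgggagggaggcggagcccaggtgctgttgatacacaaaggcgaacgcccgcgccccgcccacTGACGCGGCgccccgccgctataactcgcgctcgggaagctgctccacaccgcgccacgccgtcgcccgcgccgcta
Slc43a1 (chr2:84840073-84840372, plus strand): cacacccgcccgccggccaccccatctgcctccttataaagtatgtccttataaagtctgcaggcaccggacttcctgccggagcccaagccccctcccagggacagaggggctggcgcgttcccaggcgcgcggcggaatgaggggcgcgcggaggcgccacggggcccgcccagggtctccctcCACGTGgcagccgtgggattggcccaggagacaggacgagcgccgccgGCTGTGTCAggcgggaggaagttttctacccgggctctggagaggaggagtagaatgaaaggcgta
Slc1a4 (chr11:20332664-20332963, minus strand): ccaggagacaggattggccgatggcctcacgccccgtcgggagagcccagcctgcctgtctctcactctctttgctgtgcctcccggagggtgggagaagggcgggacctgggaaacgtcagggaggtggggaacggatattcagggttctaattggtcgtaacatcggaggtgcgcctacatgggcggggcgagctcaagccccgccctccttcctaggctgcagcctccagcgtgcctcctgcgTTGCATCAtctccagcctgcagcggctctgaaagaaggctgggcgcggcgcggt
Slc7a11 (chr3:50443564-50443863, minus strand): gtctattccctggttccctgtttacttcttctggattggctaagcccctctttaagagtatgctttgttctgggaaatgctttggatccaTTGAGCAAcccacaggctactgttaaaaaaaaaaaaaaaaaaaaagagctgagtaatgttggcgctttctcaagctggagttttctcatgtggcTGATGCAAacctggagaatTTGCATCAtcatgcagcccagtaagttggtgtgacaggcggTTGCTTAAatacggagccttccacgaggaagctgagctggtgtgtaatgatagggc

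The motifs searched on both strands were the amino acid response element TGATGNAA, bound by ATF4 with C/EBP proteins, the C/EBP palindrome TTGCGCAA and its looser form TTGCNNAA, which includes the palindrome, the HNF4A element CAAAGTCCA, the palindromic HNF1 element, the NRF2 element TGACNNNGC and the E-box CACGTG. RefSeq promoters were matched for 7 of the 10 carriers, with 14 start sites in all. Slc7a2, Slc38a3 and Slc1a5 are not in that table. The Slc3a1 promoter held an HNF4A element at positions -39 to -31 from the start, a motif found in 0.475% of all 32851 promoters, and a TTGCNNAA match on the opposite strand at -62 to -55, found in 10.8%. Slc1a4 held an amino acid response element across its start, from base -4 to base 4, a motif in 3.97% of promoters, and Slc7a11 held 2 of them beside 2 matches to TTGCNNAA. In Slc38a2 there was an NRF2 match, and in Slc43a1 an NRF2 match and an E-box, motifs in 12.4% and 7.15% of promoters. The windows of Slc7a9, Slc6a12 and Slc38a4 held none of these letters. Neither did that of Slc3a2, described further on and 5.77-fold higher in globule-containing areas, which was also searched and is not shown. No carrier's window held the C/EBP palindrome, present in 0.183% of promoters, or the HNF1 element, present in 0.0396%. A match describes the sequence only, and whether any factor binds there was not measured. The gene Hnf4a had a difference of -0.75 (9.12 in globule-containing areas against 9.86 in globule-free areas).

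Slc7a2 encodes CAT2, the carrier of arginine, lysine and ornithine whose low-affinity isoform is typical of liver. Its signal (TC0800000482.mm.1) was 13.13 in globule-containing areas against 15.23 in globule-free areas, 4.29-fold lower. Both values lay far above background and below the arrays' ceilings of 19.93 and 19.80. Arginine's main hepatic consumer, the urea cycle enzyme Arg1, was 10.3-fold lower, with 12.98 in globule-containing areas against 16.35 in globule-free areas. Agmat, which hydrolyses agmatine, an arginine derivative, was 3.30-fold lower. The widely expressed cationic carrier Slc7a1, known to be low in liver, was at background on both arrays.

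The 3 Slc38 carriers of the list were all lower, by unequal amounts. Slc38a3 encodes SNAT3, the system N carrier that moves glutamine, histidine and asparagine in either direction across the hepatocyte membrane. It had 14.73 in globule-containing areas against 17.21 in globule-free areas (TC0900003040.mm.1), 5.59-fold lower. Slc38a2 encodes SNAT2, a system A carrier that cultured cells induce when amino acids are short. Its signal was 11.44 in globule-containing areas against 13.44 in globule-free areas (TC1500002142.mm.1), 4.01-fold lower. Slc38a4 encodes SNAT4, a system A carrier largely restricted to liver. It had 17.36 in globule-containing areas against 18.27 in globule-free areas (TC1500002147.mm.1), 1.87-fold lower and so just within 2-fold. Its globule-free signal was near the top of the array's range, where differences may be compressed, and the part of that in its value was not tested. In RefSeq, Slc38a4 and Slc43a1 overlap the noncoding RNA genes Gm32840 and D930003E18Rik, whose signals were not analysed here.

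The other Slc38 genes had small differences. Of 8 others on the array, 5 were above the floor, and all 5 lay within 2-fold, with differences from -0.32 to 0.71 and a median of 0.38. The lysosomal sensor Slc38a9 had -0.32, and Slc38a1, a system A carrier of brain and other tissues, had -0.13.

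Slc1a4 and Slc1a5 encode the neutral amino acid exchangers ASCT1 and ASCT2. Both were dim. Slc1a5 (TC0700000236.mm.1) had 5.46 in globule-containing areas against 5.63 in globule-free areas, a difference of -0.17. Its size is that of the typical gap of 0.17 between 2 probe sets of the same gene, taken as the median over 177 genes with a pair of probe sets above the floor. The 95th percentile of these gaps was 1.32, so some pairs differ by more than 2-fold. Slc1a4 (TC1100002301.mm.1) had 5.23 in globule-containing areas, above background, and 4.25 in globule-free areas, below it. Raised to background, this is a signal at least 1.14-fold higher, and its deposited difference of 0.98 is no estimate of a fold. Of the other SLC1 genes only Slc1a2, a glutamate carrier of pericentral hepatocytes and astrocytes, was above the floor, with 7.87 in globule-containing areas against 8.03 in globule-free areas.

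Slc43a1, which encodes LAT3, a facilitative carrier of branched-chain and aromatic amino acids, had 5.39 in globule-containing areas against 6.44 in globule-free areas (TC0200001224.mm.1). It was 2.06-fold lower and lies just past the 2-fold threshold that Slc38a4 just misses. Slc6a12, which encodes the betaine and GABA carrier BGT1, had 8.68 in globule-containing areas against 9.03 in globule-free areas (TC0600001371.mm.1), a 1.28-fold lower signal. Its close relative Slc6a13, also found in liver, had 12.11 in globule-containing areas against 11.85 in globule-free areas. Neither betaine-related carrier was thus 2-fold apart. Bhmt, which uses betaine to methylate homocysteine, had a difference of -0.46 and Chdh, which makes betaine from choline, one of -0.96.

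**Figure D2:**
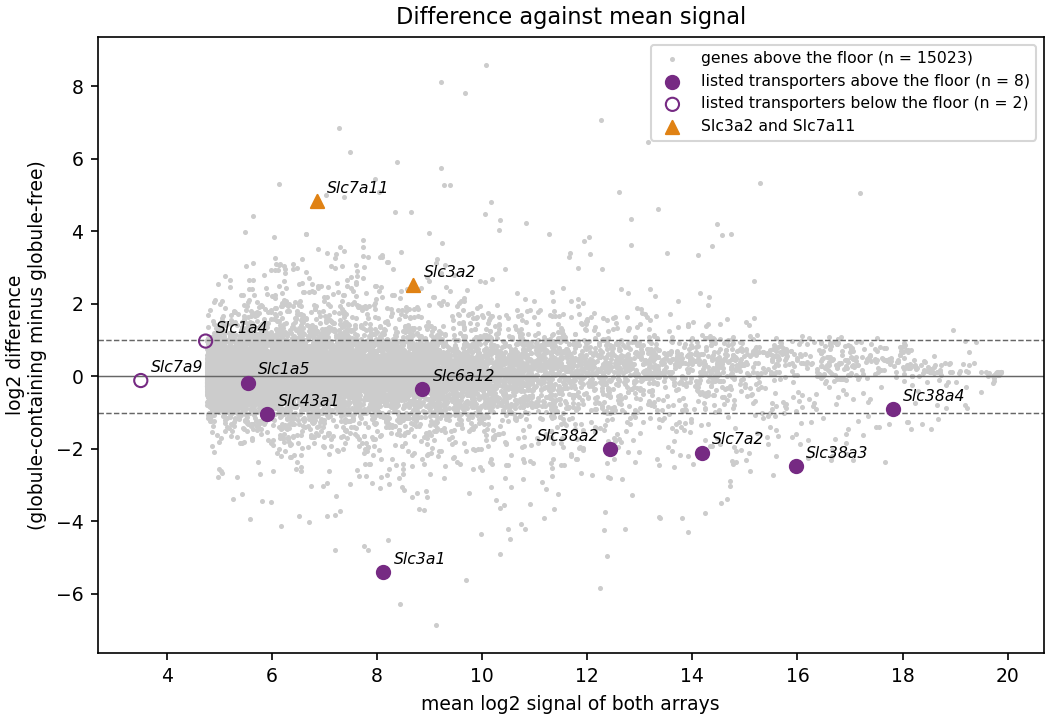
Log2 difference, globule-containing minus globule-free (vertical axis), against the mean log2 signal of both arrays (horizontal axis). Grey points are the 15023 genes above the floor, filled circles the 8 carriers above it, open circles the 2 below it, triangles Slc3a2 and Slc7a11, and dashed lines the 2-fold threshold. Slc3a1 sits at -5.39 among few other genes, and Slc7a2, Slc38a2 and Slc38a3 lie below -2 at high mean signal.

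A larger share of bright genes than of all genes lay past these thresholds in the lower direction. Among 2458 genes with a mean of 10 or more, a limit chosen after the values were seen, 10.6% were lower by 2-fold or more and 3.70% by 4-fold or more. Of the 10 carriers 4 were that bright, namely Slc7a2, Slc38a2, Slc38a3 and Slc38a4, and 3 of these 4 were at least 4-fold lower.

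Heavy chains went in opposite directions. Slc3a2, which encodes 4F2hc (CD98), the partner of most SLC7 light chains, had 9.96 in globule-containing areas against 7.43 in globule-free areas, 5.77-fold higher, beside the 42.0-fold lower signal of Slc3a1. Its light chains differed among themselves, and Slc7a6 and Slc7a10 were at background on both arrays. Slc7a11, the cystine and glutamate exchanger xCT, had 9.27 in globule-containing areas against a globule-free signal of 4.43 at background, at least 18.9-fold higher. Slc7a5, the large neutral carrier LAT1, was 2.16-fold higher, with 6.60 in globule-containing areas against 5.49 in globule-free areas. Slc7a8, the carrier LAT2, had 5.53 in globule-containing areas against 4.52 in globule-free areas, at least 1.41-fold higher given its background signal in globule-free areas. Slc7a7, the carrier of cationic amino acids mutated in lysinuric protein intolerance, had 7.42 in globule-containing areas against 6.95 in globule-free areas, within 2-fold. Of the 13 other Slc3 and Slc7 genes, 6 were above the floor and 7 at background on both arrays. Only 4 of the 6 lay above the floor on both arrays. Slc7a11 and Slc7a8 passed it through their globule-containing signal alone, and had therefore to differ, so the median of the 6, 1.06, is a description only. Of the 4 above it on both arrays, Slc3a2 and Slc7a5 were at least 2-fold higher and Slc7a7 and Slc7a4 within 2-fold.

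Over all 59 other amino acid transporters on the array, 31 were above the floor. By deposited values 4 were at least 2-fold higher, namely Slc3a2, Slc7a11, Slc7a5 and Slc7a8, and 2 were lower by as much. Over all genes above the floor 6.47% were higher and 5.26% lower by 2-fold or more, so 2 lower of 31 is near the share over all genes. The median of the 31 was 0.26. The 4 became 3, without Slc7a8, when values below background were raised to it and also after median centring. Both lower ones serve mitochondria. Slc25a13, the aspartate and glutamate carrier citrin that feeds the urea cycle, had 10.48 in globule-containing areas against 12.15 in globule-free areas, 3.18-fold lower. Sfxn1, a serine carrier, had 8.33 in globule-containing areas against 9.84 in globule-free areas, 2.84-fold lower. The remaining 5 mitochondrial carriers above the floor lay within 2-fold, as did all 5 of the other Slc6 genes, all 4 Slc43, Slc16 and Slc36 genes and all 3 lysosomal exporters above it.

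**Figure D3:**
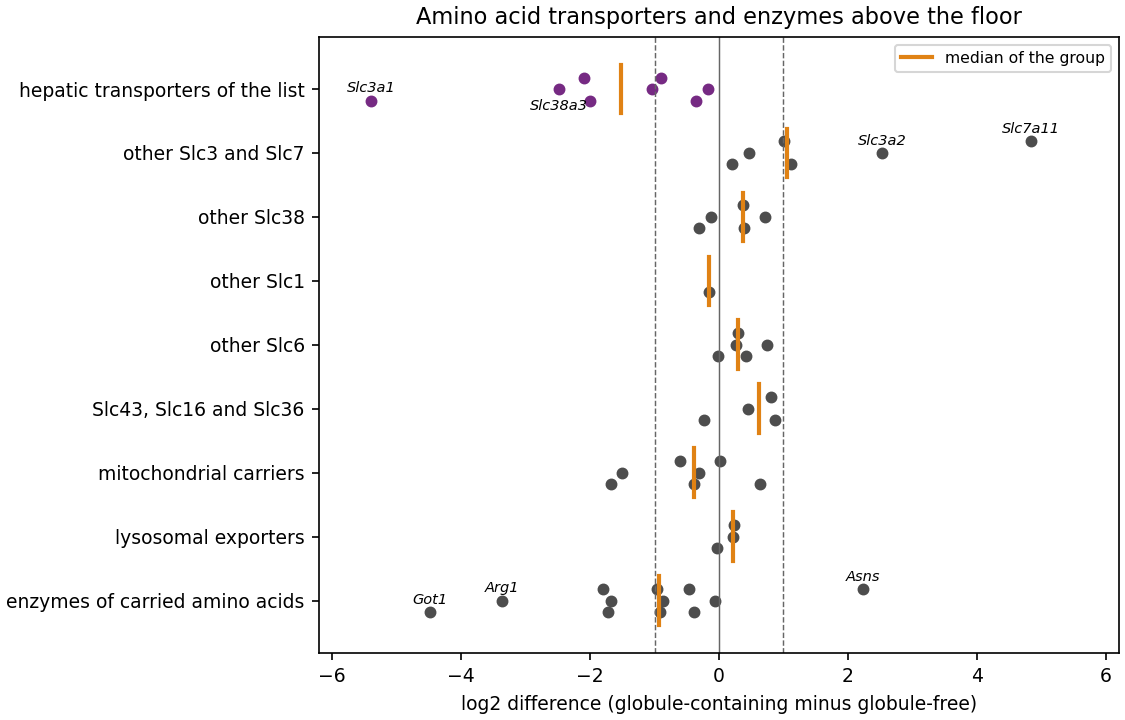
Log2 difference, globule-containing minus globule-free (horizontal axis), of genes above the floor in each group of transporters and in the enzymes, 1 point per gene, with bars at group medians and dashed lines at 2-fold. The listed hepatic carriers lie left of 0, with a median of -1.52, and the other Slc3 and Slc7 genes right of it, with a median of 1.06 that includes Slc7a11 and Slc7a8, whose globule-free signals were at background.

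Transporter genes known from other cells as targets of ATF4, a transcription factor of amino acid shortage and ER stress, split among themselves. Of 9 such genes 6 were above the floor. Slc3a2, Slc7a5 and Slc7a11 were at least 2-fold higher, Slc38a2 was at least 2-fold lower, and Slc1a5 and Slc6a9, a glycine carrier, lay within 2-fold. Over all genes above the floor, 6.47% were higher and 5.26% lower by as much. The median of the 6 ATF4 targets, of which Slc7a11 passed the floor by its globule-containing signal alone, was 0.76. Slc1a4 belongs to the same list and lay below the floor.

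Most measured enzymes that act on the carried amino acids were lower. Of 16 listed enzymes 12 were measured by probe sets naming 1 gene, and 11 of these had a negative difference. Over all 15023 genes above the floor, 6832 had one. Gls2, Sds and Sdsl were not analysed here. Glul, glutamine synthetase, has a probe set that also names a microRNA and was left out of the count, with 10.64 in globule-containing areas against 9.84 in globule-free areas. By 2-fold or more 5 were lower and 1 was higher, against 5.26% lower and 6.47% higher over all genes above the floor. Among genes with a mean of 10 or more, 10.6% were lower by as much. The median of the 12 enzymes was -0.93. Besides Arg1 and Agmat the lower ones were Got1, the cytosolic aspartate aminotransferase, 22.4-fold, and Cbs and Cth, which convert homocysteine to cysteine, 3.50-fold and 3.19-fold. Cth had 14.58 in globule-containing areas against 16.25 in globule-free areas. The higher one was Asns, which makes asparagine from aspartate and glutamine, at least 4.26-fold higher against a globule-free signal at background.

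Markers of hepatocyte position and of other cell types also differed between the arrays, and their part in the carrier differences was not tested. Of 9 measured periportal hepatocyte genes 8 were lower by 2-fold or more. Beside this and the marker counts that follow, 5.26% of all genes above the floor were lower and 6.47% higher by as much. Among genes with a mean of 10 or more, 10.6% were lower by 2-fold or more. The median of the 9 periportal genes was -3.24 and their mean signal 11.49 in globule-containing areas against 14.74 in globule-free areas. All 9 measured pericentral genes lay within 2-fold, with differences from -0.88 to 0.96 and a median of 0.50. That median is the value of Axin2, which passed the floor through its globule-containing signal alone, 5.25 against 4.75 in globule-free areas. The globule-free signals of Axin2 and Lgr5 were at background, so their differences are no estimates of a fold. The median is therefore a description only. Of the 9, 6 were positive and 3 negative, with a mean signal of 11.55 in globule-containing areas against 11.30 in globule-free areas. General hepatocyte markers were bright on both arrays, with a mean of 16.35 in globule-containing areas against 16.91 in globule-free areas. Of these 10, only Cps1 of the urea cycle and Tat, tyrosine aminotransferase, were at least 2-fold lower. Albumin (Alb) reached the top of the scale on each array. Ttr and others lay close to it, Ttr with 19.72 in globule-containing areas against 19.75 in globule-free areas. Differences may be compressed there, and the part of that in the median of these markers was not tested. Stellate cell and fibroblast markers were higher, by deposited values 10 of 10 above the floor by at least 2-fold, with a median of 2.30. Their mean was 8.88 in globule-containing areas against 6.56 in globule-free areas, while Des was at background. The globule-free signals of Col1a2, Acta2 and Hand2 were also at background. With that signal raised to background, Hand2 was at least 1.92-fold higher and so not surely past 2-fold. Macrophage markers went both ways, 6 of 15 higher and 5 lower by 2-fold or more, with means of 9.01 in globule-containing areas against 8.21 in globule-free areas. Of 9 endothelial markers above the floor 1 was at least 2-fold higher, with signals from 6.44 to 10.89 in globule-containing areas against 5.93 to 10.28 in globule-free areas and Tie1 at background. Cholangiocyte markers above the floor numbered 4, of which Tff3 was at least 2-fold lower, with means of 5.45 in globule-containing areas against 6.26 in globule-free areas and Krt7 and Cftr at background. Of 5 neutrophil markers above the floor 2 were at least 2-fold higher, with means of 7.82 in globule-containing areas against 5.63 in globule-free areas and Mmp8 and Mmp9 at background. Lymphocyte markers were at background on both arrays for 7 of 8 genes, Cd3e and Cd79a included, and the other, Nkg7, had 5.16 in globule-containing areas against 4.77 in globule-free areas.

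The scaling of the arrays bears on the smaller differences. The 4 hybridisation spikes had differences from -0.77 to -0.33, with a mean of -0.57, and the sources used here do not say whether equal amounts were added. Centring on them, a setting chosen after the data were seen, moved the median of all genes to 0.62. Slc3a1 was then at -4.82, Slc38a3 at -1.91, Slc7a2 at -1.53 and Slc38a2 at -1.43, all at least 2-fold lower. Slc43a1, at -0.48, and Slc38a4, at -0.33, were within 2-fold, and Slc6a12 turned to 0.22, Slc1a5 to 0.40 and Slc7a9 to 0.46. This centring adds the same amount to every gene, so it leaves each carrier's distance from the median of all genes as it was.

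**Figure D4:**
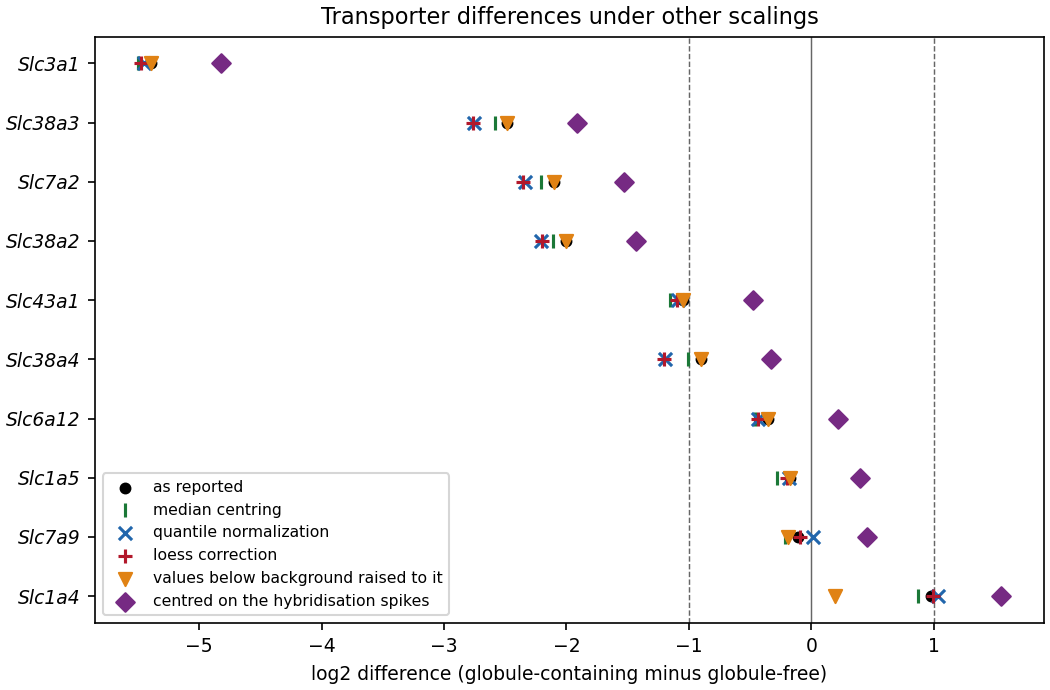
Log2 difference, globule-containing minus globule-free (horizontal axis), of each carrier as reported and under 5 other treatments of the values, with dashed lines at 2-fold. Slc3a1, Slc38a3, Slc7a2 and Slc38a2 stay left of -1 under each, while Slc6a12, Slc1a5 and Slc7a9 change side when centred on the spikes, and Slc7a9 also with quantile normalization.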

How the data were processed

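Per the labels' protocols, PicoPure-extracted RNA of the laser-captured areas (50 ng input) was turned into biotinylated target by NuGEN Ovation whole-transcriptome amplification. The deposited table holds log2 signals of 72688 probe sets on 2 arrays. Per the submitters' processing notes the authors used the Transcriptome Analysis Console; no version is named, the sources used here give neither background correction, normalization nor genome build, and the log2 scale was read from the values. Precision is limited by the number of arrays.

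Genes came from the platform annotation: 30604 probe sets name 1 gene, 2146 several. Symbols were updated through Entrez IDs (22818 matched, GRCm38.p6). Probe sets of 1 gene were averaged. Where 1 array was at or below background, it was raised to that level and the fold written as "at least"; counts use deposited values. The steps recovered large known changes put into simulated arrays with little noise and no scaling offset, in genes well above the floor. This checks the code only, not dim genes, array scaling or the noise of these arrays.

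The 10 carriers, the gene lists and the motifs were chosen with earlier results of these data known. All 10 carriers are named; of the other transporters, ATF4 targets and enzymes, those at least 2-fold apart; the 3 genes nearest to the carrier with the largest difference; up to 4 markers of a list. Prepl, Hnf4a and genes within 2-fold or at background that are given as context were chosen after their values were seen. Alternatives covered scaling, probe set choice, background, floor and threshold. Software versions were 3.11.15 for Python, 2.4.6 for numpy, 2.3.3 for pandas and 0.14.6 for statsmodels.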

Additional observations from a re-analysis of the deposited data

How the results depend on the processing

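The count of 5 carriers at least 2-fold lower stayed between 4 and 6 under the 11 alternatives, and no carrier above the floor was at least 2-fold higher under any. Slc1a4, below the floor and at background in globule-free areas, was left out of that count. Slc38a4 joined the lower ones after median centring, at -1.01, quantile normalization, at -1.19, and loess correction, at -1.21. The median difference of the carriers, -1.52 as reported, was -1.70 after either quantile normalization or loess correction, -0.97 with no floor, -2.05 with a floor raised to the 75th percentile and -0.95 when centred on the hybridisation spikes. The 2 other transporters at least 2-fold lower became 0 at a 4-fold threshold and 1 when centred on the spikes. The 4 at least 2-fold higher became 3 after median centring or with values below background raised to it, 2 with the floor at the 75th percentile or a 4-fold threshold, 9 at 1.5-fold and 11 when centred on the spikes. Their median of 0.26 was -0.027 with no floor and 0.83 when centred on the spikes. Over all genes above the floor, 790 were at least 2-fold lower and 972 higher as reported, 990 lower and 789 higher after median centring, and 349 lower and 3414 higher when centred on the spikes. Of the single carriers, Slc1a4 kept a positive difference under 7 of 7 alternatives, from 0.19 to 1.55, and was past 2-fold after quantile normalization, at 1.04, and when centred on the spikes. Its globule-free signal was below background, so these values are no estimates of a fold, and 0.19 is the difference with that signal raised to background. Each carrier has 1 probe set and none shared with other genes, so the alternatives on probe set choice could not change any of their values. No paired analysis was possible because each group has 1 array.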
